A study of Petromyzon marinus with 6 samples.

Results

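The transcripts described here are 74 assembled components of the sea lamprey embryo transcriptome that were counted at day 5 after fertilization and at most weakly at days 1, 2, 2.5, 3 and 4. They are 74 of 87262 components, and 74 of the 16518 that had at least 2.5 CPM (counts per 1000000 counts of a library) at day 5. A component is the set of assembled contigs that share 1 identifier apart from the last sequence number, and its CPM is its summed expected count scaled by the library's total expected count. Members were chosen by their measured values: under 0.5 CPM in each of the 5 earlier libraries and 2.5 CPM or more at day 5. Their levels are therefore given as a description, with no test.

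The sea lamprey (Petromyzon marinus) is a jawless vertebrate, and RNA came from whole embryos. Each of the 6 stages was sequenced as 1 paired-end library. The sources used here give neither the number of embryos per library nor their temperature or anatomical stage. With 1 library per stage no difference between stages has a replicate check, and what belongs to day 5 and what belongs to that 1 library cannot be told apart. In whole embryos, a change in the number of cells of a type and a change in RNA per cell cannot be told apart either.

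Early animal embryos run at first on RNA stored in the egg, and transcription from the embryo's own genome takes over as cleavage gives way to gastrulation. Transcripts absent from the egg and counted late are the usual mark of that later, embryonic transcription. Lampreys also discard part of their genome from body cells during early development. None of the 145913 contig identifiers occurs among the 45433 genes of the RefSeq table for assembly UKy_Petmar_22M1.pri1.0, so no member has a gene name or a known role here, and no contig sequence was used here.

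The libraries held 15503408 (day 5) to 21910029 (day 1) expected counts. At these depths 2.5 CPM equals 38.8 counts at day 5, and 0.5 CPM equals 8.80 counts (day 2) to 11.0 counts (day 1) in the earlier libraries. The level of 3 counts, a floor used below, was 0.194 CPM at day 5 and 0.137 CPM at day 1. The exact upper limit for 0 counts was higher, 0.168 CPM for day 1. Intervals below are exact at 95%. Those of levels, folds and shares of counts cover counting error only. Those of shares of components treat the components as independent draws, which was not tested, and are a guide to size only.

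The label of a start at day 5 held as a limit on level, not as a first detection. Only 1 of the 74 members had no count in any earlier library; it was a single contig of 821 nt with 39 counts at day 5, singled out after its values were seen. Day 2.5 was the first library with a count for 30 members, day 3 for 18, day 1 for 17, day 2 for 6 and day 4 for 2. In 7 members each earlier library held fewer than 3 counts, and 10 members were counted in all 5 of them. For all 74 the day 5 interval lay above that of each earlier library, which the limits of 0.5 and 2.5 CPM fix at these depths.

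Together the members had 54 counts (day 1), 64 (day 2), 150 (day 2.5), 348 (day 3), 230 (day 4) and 4048 (day 5). As summed levels these were 2.46 CPM (day 1), 3.64 (day 2), 8.16 (day 2.5), 16.8 (day 3), 11.6 (day 4) and 261 (day 5). The sums of the earlier libraries hold only values that the rule kept under 0.5 CPM, so their order is given as a description; the counting interval was 10.1 to 13.2 CPM at day 4 and 15.0 to 18.6 CPM at day 3. At day 5 the 74 members held 0.0261% of all counts (0.0253% to 0.0269%) and 0.0477% of the deposited TPM, a level per transcript length. They are thus a rare fraction of the day 5 RNA.

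The levels at day 5 spanned a narrow range just above the limit. The lowest was 2.52 CPM, the median 3.10 CPM (interquartile range 2.77 to 3.92) and the highest 6.77 CPM, against a limit of 2.5. Only 8 members reached 5 CPM. Counting error alone covers the limit for most of them: the lower end of the day 5 interval was at or above 2.5 CPM in 30 of 74. The upper end of the interval was under 0.5 CPM in all 5 earlier libraries in 12 of 74. Just outside the rule, the nearest component had 2.45 CPM at day 5, and 41 components between 2.0 and 2.5 CPM passed every other limit. On the other side, 116 components with 2.5 CPM or more at day 5 had their highest earlier level between 0.5 and 1 CPM, the nearest at 0.504 CPM. The highest earlier level of a member was 0.489 CPM, at day 2.5.

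The 2 members with the most counts at day 5 had different counts before it. The highest, lcl|comp266973_c0, is a single contig of 718 nt. It had 7 counts (day 1), 6 (day 2), 5 (day 2.5), 3 (day 3), 6 (day 4) and 105 (day 5). It had counts in every library and was 22.4-fold higher at day 5 than at day 4 (counting interval 9.95 to 62.4). The second, lcl|comp2360411_c0, is a single contig of 1091 nt. It had 0 counts at days 1 and 2, then 4 (day 2.5), 7 (day 3), 1 (day 4) and 104 (day 5). The counting intervals of its earlier counts overlapped, and no order of those libraries is read from so few counts. For 0 counts the interval reached 0.168 CPM at day 1 and 0.210 CPM at day 2. The ratio of day 5 to day 4 was 133, with a counting interval of 23.4 to 5308. The day 5 levels of the 2 members, 6.77 CPM (5.54 to 8.20) and 6.71 CPM (5.48 to 8.13), did not differ beyond counting error. Per length they lay further apart, at 18.6 TPM for the first and 11.6 TPM for the second at day 5.

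**Figure D1:**
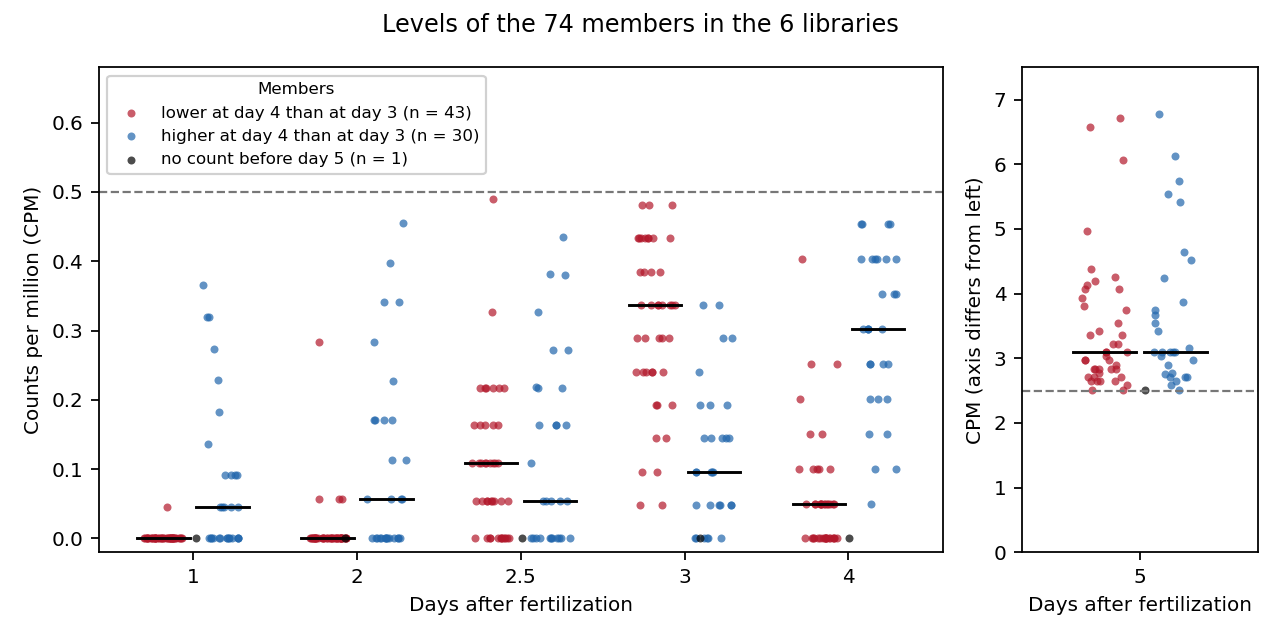
CPM of each of the 74 members in each library (points, spread sideways; dashed lines mark the limits of 0.5 and 2.5 CPM; black bars are medians of groups with more than 1 member; the right panel has its own axis). The 43 members lower at day 4 than at day 3 have a median of 0.0504 CPM at day 4 and 0.337 CPM at day 3, while the 30 higher at day 4 have 0.302 CPM at day 4 and 0.0963 CPM at day 3.

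Between day 4 and day 5 the rule itself demands a ratio of at least 5. At day 4, 19 members had 0 counts, 22 had 1 or 2 and 33 had 3 or more. In the 33 with 3 or more, the day 5 level was 6.40-fold to 43.5-fold the day 4 level (median 12.4). For the 19 with none, the day 5 level was 16.6 to 29.0 times that of 3 counts in the day 4 library, and the smallest lower limit of the counting intervals of the fold was 12.9. On the scale of CPM + 0.5, which understates the change of low components, 63 of 74 members were 4-fold or more higher at day 5 than at day 4. Of all 17999 components with 2.5 CPM or more in either library, 2.39% were. The same count was 63 against day 3 (7.5% of 19111 components), 72 against day 2.5 (11.9% of 21401), 73 against day 2 (14% of 21017) and 74 against day 1 (16.8% of 20939). These contrasts chose the members, so nothing is read from the counts.

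The same limits applied to each other library found far fewer components. Components high in 1 library alone numbered 4 (day 1), 3 (day 2), 16 (day 2.5), 7 (day 3), 11 (day 4) and 74 (day 5). As a share of the components with 2.5 CPM or more in the library, that was 0.448% at day 5 and 0.0172% (day 2) to 0.0887% (day 2.5) at the earlier days. Day 5 is the last library, so a transcript that starts there and continues passes, while one that starts at an inner day must also have stopped by the next library. In their own library these components had a median of 3.10 CPM at day 5, against 2.56 CPM (day 2) to 4.02 CPM (day 1) for the earlier days.

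**Figure D2:**
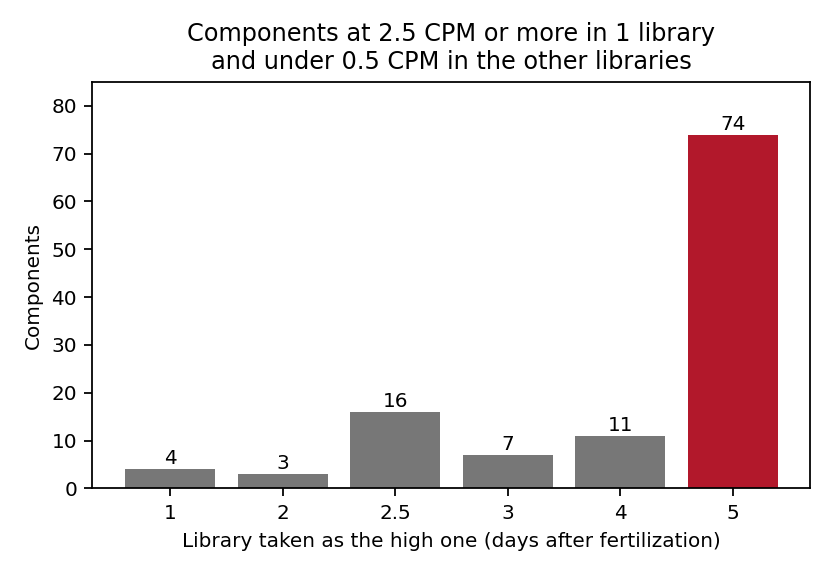
Number of components (bars) with 2.5 CPM or more in 1 library and under 0.5 CPM in the other 5, by the library taken as the high one. The count is 74 for day 5 and 3 to 16 for each earlier day.

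The members were divided by the order of their levels at days 3 and 4. The split below uses the measured levels of those libraries, so their order in each group is given by choice. In 43 members the level was lower at day 4 than at day 3, in 30 it was higher at day 4, and the member with no earlier count stayed at 0. Of all components with 2.5 CPM or more at day 5, 47.6% were lower at day 4 than at day 3. Of the 34398 components with any count and under 0.5 CPM at days 1 to 4, 35% were. Each member had at most 10 counts in an earlier library, so its own place in the split is uncertain. The sums of each group at days 3 and 4 carry the counting error that the split selected. They can therefore overstate the gap between these libraries. In 33 of the 43, day 3 held 3 or more counts and at least 2 times the day 4 level.

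The 43 members lower at day 4 were nearly uncounted at first. Their sum was 1 count (day 1), 8 (day 2), 81 (day 2.5), 274 (day 3), 52 (day 4) and 2301 (day 5). In CPM this was 0.0456 (day 1), 0.455 (day 2), 4.41 (day 2.5), 13.2 (day 3), 2.62 (day 4) and 148 (day 5). Of the 43, 39 had no count at days 1 and 2, and 18 had none at day 4. At day 3 they stood at a median of 0.0919 of their day 5 level (range 0.0110 to 0.178), where the rule allows at most 0.2.

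The 30 members higher at day 4 carried, as a sum, a low trace from the first library. Their sum was 53 counts (day 1), 56 (day 2), 69 (day 2.5), 74 (day 3), 178 (day 4) and 1708 (day 5). The summed level was 2.42 CPM (day 1), 3.18 (day 2), 3.75 (day 2.5), 3.56 (day 3), 8.97 (day 4) and 110 (day 5). From day 1 to day 3 the counting intervals of these sums overlapped, which does not show that the levels were equal. Day 4 lay above them, which the split favours. Of the 30, 11 had no count at days 1 and 2, and 9 were counted in every earlier library. At day 4 they stood at a median of 0.0815 of their day 5 level (range 0.0130 to 0.156). At day 5 the median was 3.10 CPM in both groups. The rule cuts both at 2.5 CPM there, so no likeness is read from these medians.

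**Figure D3:**
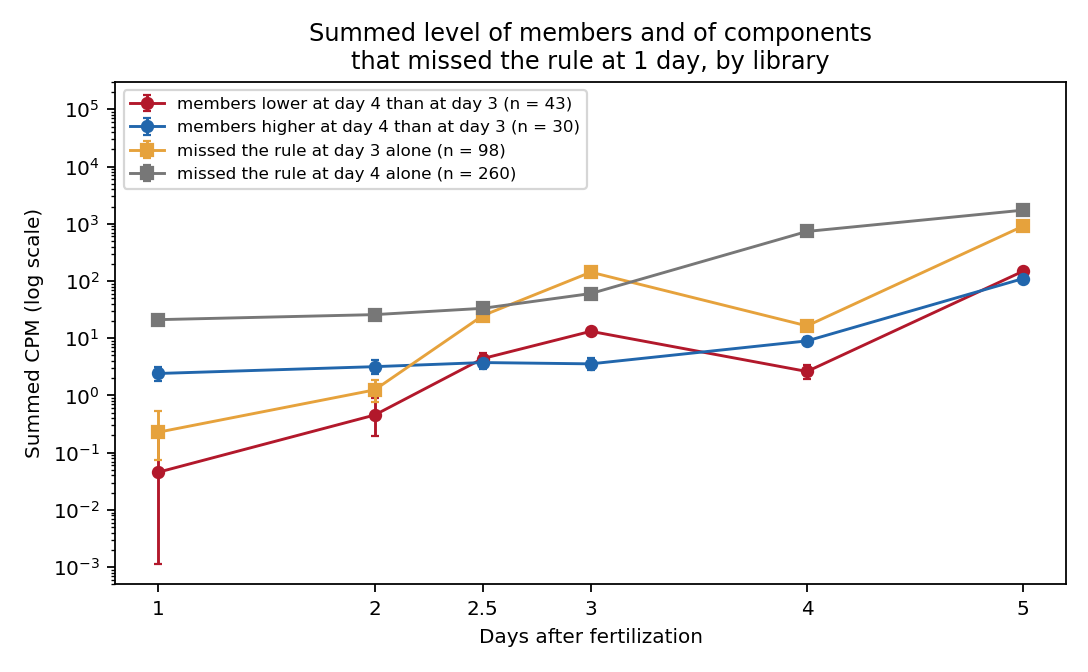
Summed CPM (log scale) by day after fertilization for the 43 members lower at day 4 than at day 3, the 30 members higher at day 4, the 98 components that missed the rule at day 3 alone and the 260 that missed it at day 4 alone; bars are exact 95% counting intervals. By the way the sets were chosen, day 4 lies under day 3 in the 43 members (2.62 against 13.2 CPM) and the 98 components (16.4 against 143 CPM) and above it in the other lines.

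Components just outside the limit at day 3 are given beside the members for comparison. With 2.5 CPM or more at day 5, 98 components missed the rule only because day 3 reached 0.5 CPM, and all 98 were lower at day 4 than at day 3. Their sum was 5 counts (day 1), 22 (day 2), 456 (day 2.5), 2960 (day 3), 326 (day 4) and 14096 (day 5), which made 143 (day 3), 16.4 (day 4) and 909 CPM (day 5). Being at 0.5 CPM or more at day 3 and under it at day 4, they had to be lower at day 4, and like the members they were held under 0.5 CPM at days 1, 2 and 2.5. Of the 98, 78 had no count at days 1 and 2. At day 5 the members had a median of 3.10 CPM and a maximum of 6.77 CPM, against 8.68 and 29.4 CPM in these 98. At day 3 the 98 stood at a median of 0.150 of their day 5 level (range 0.0622 to 0.538). The limit of 0.5 CPM at day 3 parts these sets. It favours a higher day 5 level and a higher ratio in the 98, so nothing is read from either contrast. The sums of the 43 members and of these 98 components ordered the libraries in 1 way: day 1 lowest, then days 2, 4, 2.5, 3 and 5. Day 4 below day 3 was selected in both. The rule fixed day 5 as the highest in the members, and the choice of the 98 fixed day 3 above their other earlier libraries. In the 43 the counting intervals of days 1 and 2 overlapped (0.00116 to 0.254 and 0.196 to 0.896 CPM). Nothing is read from the shared order.

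The 260 components that missed the rule at day 4 alone were, by that choice, all higher at day 4 than at day 3. Their sum was 21.1 CPM (day 1), 25.8 (day 2), 33.3 (day 2.5), 60.3 (day 3), 734 (day 4) and 1728 (day 5). Like the 30 members higher at day 4, they carried a trace at days 1 and 2, and 73 of the 260 had no count in these 2 libraries.

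The rule did not use the number in the identifiers. In it the members differed from other components with 2.5 CPM or more at day 5. The number is given by the assembler, and nothing in the sources used here ties it to a position or a function. Those other components had a median of 11.2 CPM at day 5, against 3.10 CPM for the members. In the earlier libraries their median was 9.32 CPM (day 4) to 13.3 CPM (day 1). No set matched in level was compared, here or for the lengths, contigs and fractions below. The part that level plays in these differences was not tested. Numbers of 7 digits occurred in 21 of 74 members (28.4%, 18.5% to 40.1%) and in 49 of the 16444 other components with 2.5 CPM or more at day 5 (0.298%, 0.221% to 0.394%). Among all 87262 components, 17709 (20.3%) had 7 or 8 digits, a share inside the members' interval. Hardly any of these 17709 reached 2.5 CPM at day 5. Of the 70 that did, 21 were members, 35 missed the rule at day 3 alone and 14 were elsewhere. None of the 260 components that missed at day 4 alone had 7 digits or more. The trait was not particular to the members: it occurred in 35.7% of the 98 components that missed at day 3 alone. Among components high in 1 other library alone, 7 digits or more occurred in 3 of 11 at day 4 (27.3%, 6.02% to 61.0%), 1 of 7 at day 3, 1 of 16 at day 2.5, 0 of 3 at day 2 and 0 of 4 at day 1.

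All 21 members with 7-digit numbers were lower at day 4 than at day 3, against 22 of the 53 members with shorter numbers. In 17 of the 21, day 3 held 3 or more counts and at least 2 times the day 4 level, against 33 of all 43. The sum of the 21 was 0 counts (day 1), 1 (day 2), 34 (day 2.5), 142 (day 3), 21 (day 4) and 1106 (day 5). Each was a single contig, and their day 3 level was 0.0191 to 0.178 of their day 5 level (median 0.107). The 53 others had 54 counts (day 1), 63 (day 2), 116 (day 2.5), 206 (day 3), 209 (day 4) and 2942 (day 5). Of the 21, 20 had no count at days 1 and 2, against 31 of the 53. Of all 70 components with 7-digit numbers and 2.5 CPM or more at day 5, 61 were lower at day 4 than at day 3. These 70 include the 21 members and the 35 that missed at day 3 alone, which had to be lower at day 4. Of all 16518 components at that day 5 level, 47.6% were lower at day 4. No count at days 1 and 2 was found for 54 of the 70. The 21 members and the 35 among them were held under 0.5 CPM at both days by their choice, which favours 0 counts. Of the 16518, 954 had no count at day 1 and 410 had none at day 2. The 16518 as a whole were not so held, so nothing is read from this contrast.

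**Figure D4:**
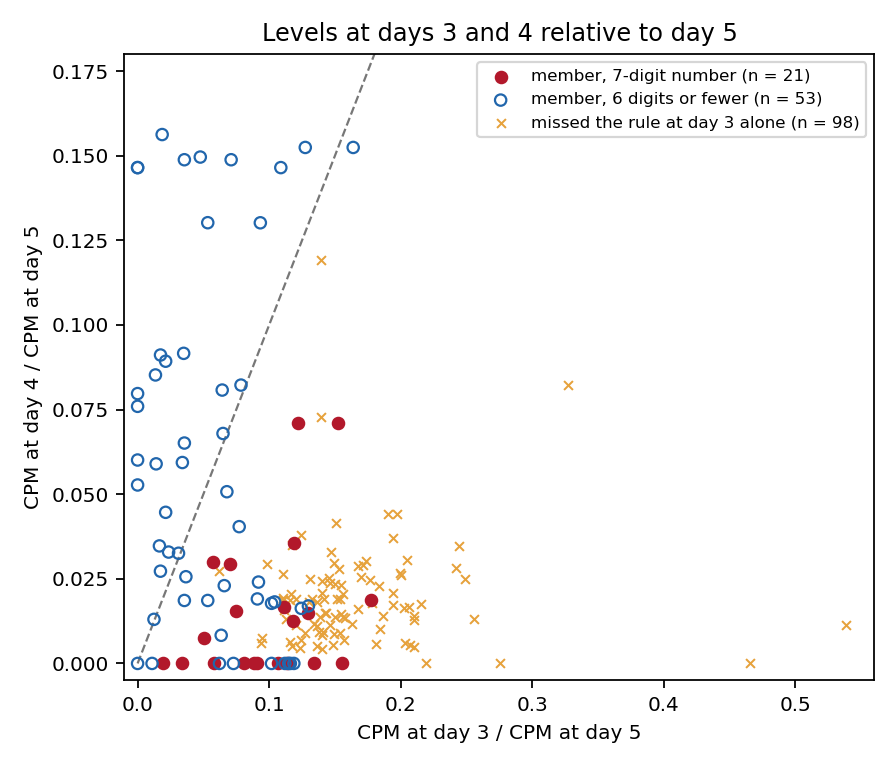
CPM at day 4 (vertical) and at day 3 (horizontal), each divided by CPM at day 5, for members with 7-digit numbers, members with shorter numbers and the 98 components that missed the rule at day 3 alone; the dashed line marks equal levels at days 3 and 4. All 21 members with 7-digit numbers lie below the line, with day 3 at up to 0.178 of day 5.

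The members were shorter than other components of at least 2.5 CPM at day 5 but longer than components as a whole. The second difference did not hold for members chosen by the deposited TPM, whose median was 712 nt. Their longest contig had a median of 1101 nt (507 to 2882), against 1706 nt in the other components with 2.5 CPM or more at day 5 and 761 nt over all components. In 38 of 74 members it was at least 1000 nt and under 1500 nt long. At 2000 nt or more were 4 members (5.41%), against 41.5% of the other components at that level and 10.7% over all components, and no member reached 3000 nt, against 21.9% of the others at that level. CPM is not divided by length, so at equal transcript numbers a longer contig reaches 2.5 CPM at day 5 more easily. For the same reason it stays under 0.5 CPM in the earlier libraries less easily. The net effect of the limits on length, and the part that level plays, were not tested. The 43 members lower at day 4 had a median of 1089 nt, the 30 higher at day 4 had 1191 nt and the 98 components that missed at day 3 alone had 823.5 nt.

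**Figure D5:**
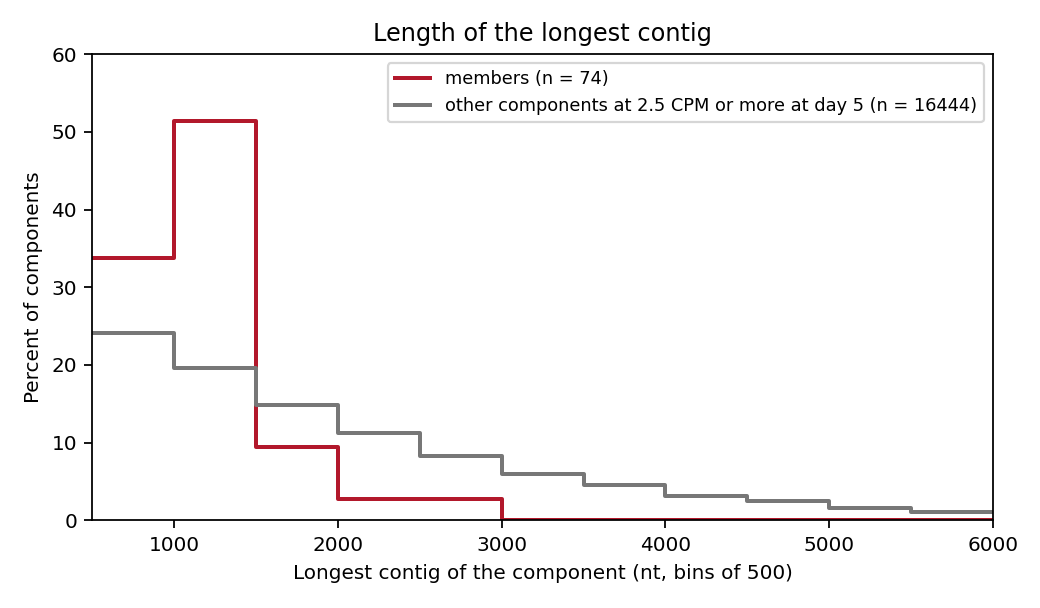
Percent of components by length of the longest contig in bins of 500 nt, for the 74 members and for the 16444 other components with 2.5 CPM or more at day 5, of which the 3.28% at 6000 nt or more lie beyond the axis. Of the members, 38 lie between 1000 and 1500 nt and none at 3000 nt or more.

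The 74 members held 87 contigs, and 63 members (85.1%, 75.0% to 92.3%) were a single contig. Of the other components with 2.5 CPM or more at day 5, 50.3% were, against 78.3% over all components, a value inside the members' interval, and 89.8% of the 98 that missed the rule at day 3 alone. A single contig made up 41 of the 43 members lower at day 4 and 21 of the 30 higher at day 4. Of the 11 members with more contigs, 10 had 2 and 1 had 4. In 9 of these 11, 1 contig held all counts at day 5, and in the other two it held 69.4% and 83.0%. The same share, in components with 2 or more contigs, had a median of 73.8% in the others with 2.5 CPM or more at day 5. Over all components it was 85.5%. Components in both sets had up to 199 contigs, and the part that the number of contigs plays was not tested. In 8 of the 11 the contig with the most counts at day 5 also had the most before it.

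Summed counts that were not whole numbers were rarer in the members than in other components with 2.5 CPM or more at day 5. The members' share was close to that over all components. At day 5, 8 of 74 members (10.8%) had a summed expected count more than 0.005 from a whole number. Such a fraction can come from fragments that also matched contigs of other components. Fragments split only among contigs of the same component add up to whole counts, apart from rounding of the deposited values. Rounding can leave a fraction in components of 2 or more contigs, which were 8176 of the 16444 others and 11 of the members. The part of rounding was not tested. The share with such a fraction was 49.8% in the other components with 2.5 CPM or more. The share was 6.12% in the 98 that missed the rule at day 3 alone. It was 11.0% over all 87262 components, but 23089 of these had 0 counts at day 5 and could not show a fraction. Of the 64173 components with counts at day 5, 9584 had a fraction. All 8 were among the 30 members higher at day 4, and the 43 lower at day 4 had none. The part that the number of contigs and the level play in these shares was not tested.

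Per length, the deposited TPM of the members at day 5 ran from 1.71 to 24.9 with a median of 5.66, against 14.6 in the other components with 2.5 CPM or more. The order differed from that by CPM: the member highest in TPM was the fifth by CPM, a contig of 507 nt with 94 counts, and the lowest in TPM was the longest, with 2882 nt. In 72 of 74 the TPM at day 5 was 2.5 or more.

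Of the 74 members, 11 had at least 1 sister component, with the same identifier number and another c index. There were 13 such sisters, and none was itself a member. In 11 of the 13 the highest library was day 5, which the rule fixes for the members, but 11 stayed under 2.5 CPM there. In 7 the highest library was day 5 with no count at days 1 and 2. The same shares over all components were not computed, so nothing is read from these counts of sisters. The sister with the highest level, singled out after its values were seen, belonged to the sixth member by CPM. It was made of 6 contigs up to 3375 nt and had 0.274 CPM (day 1), 2.95 (day 2), 8.43 (day 2.5), 23.3 (day 3), 106 (day 4) and 219 (day 5). The member itself, of 736 nt, had 4 counts (day 1), 4 (day 2), 7.01 (day 2.5), 0 (day 3), 6 (day 4) and 88.9 (day 5). In 5 of the 13 sisters an earlier library reached 0.5 CPM.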

How the data were processed

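RNA from whole embryos was sequenced as 1 paired-end library per stage, after Trizol extraction and NEBnext preparation, per the labels' protocols. The submitters' processing notes name RSEM as the tool behind the values. Its version, an aligner and an assembler were not given in the sources used here. The deposited files give, per the file headers, an expected count, a TPM, an FPKM and a length for each of 145913 contigs of 500 to 17827 nt. The authors' expected counts are RSEM's estimates of fragments per contig, before any normalization. The deposited TPM, which the authors' program divides by effective length and scales to 1 sum per library, served as an alternative, and the deposited FPKM was not used. Contig length and effective length, the other deposited columns, are in nucleotides; effective length was not used.

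Expected counts were summed by component (87262) and divided by library totals. No test between stages was run. Intervals are exact Poisson (levels) or Clopper-Pearson (shares and folds, on rounded counts). The selection script was tested on simulated data. Scalings came from edgeR 4.0.16 (TMM) and DESeq2 1.42.0 (size factors), on rounded counts, with R 4.3.3. Python 3.11.15, numpy 2.4.6, pandas 2.3.3, scipy 1.17.1 and matplotlib 3.10.9 were used. Members and comparisons were chosen with earlier results of these data known. At most 2 members are printed by identifier, the highest by CPM at day 5. No pairing of libraries by replicate number exists.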

Additional observations from a re-analysis of the deposited data

How the results depend on the processing

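Of the alternatives, 31 left a value close to that reported and 37 moved it. The 7-digit shares and the order of days 3 and 4 under other settings were examined after seeing the data. Membership rests on its limits. The 74 members became 195 with the deposited TPM, 252 as single contigs, 22 with a lower limit of 0.25 CPM and 190 with 1 CPM, 315 with the upper limit lowered by a factor of 2 and 8 with 5 CPM, and 37 with 60 or more counts in all. Without the limit at day 3 they were 172 and without that at day 4 they were 334; dropping day 1, 2 or 2.5 gave 79, 76 and 82. TMM scaling gave 85 members, of which 71 were shared, DESeq2 size factors 82 with 60 shared, and TPM shared 27. With an upper limit of 5 CPM the median at day 5 was 6.09 CPM. Members held 0.0286% of the day 5 counts with TMM, 0.0711% by TPM, 0.00489% from 5 CPM and 0.00733% with 0.25 CPM. By TPM, which favours short contigs, the median longest contig was 712 nt, under the 761 nt over all components. Counting only contigs with a count at day 5, 97.3% of members had 1 contig. The main contig's share, 100% in the median, was then 76.2%, from only 2 members. Members with no earlier count went from 1 to 7 when under 3 counts was the rule, 3 over days 1 to 3 and 0 from 5 CPM. Components high in 1 library, in the order of the days, were 7, 1, 17, 11, 13 and 85 with TMM, 9, 8, 56, 17, 44 and 195 by TPM, and 0, 0, 3, 1, 1 and 8 from 5 CPM, with day 5 highest in each. Members lower at day 4 than at day 3 stayed at 42 or 43 under the 3 other scalings, and at 33 when 2 times and 3 counts were required. The share with 7-digit numbers was 12.5% from 5 CPM and 6.29% without the limit at day 4. No paired analysis was possible because only 1 library exists for a stage. Causes were not tested unless given.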
